A study of Homo sapiens
Mus musculus with 2 samples.

Results

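Colonocytes rich in Reg3b and Reg3g were 63 of the 488 colonocytes, and of the 2402 barcodes, recovered from the colonic epithelium of 1 mouse. Levels are unique molecular identifiers (UMIs, each marking 1 captured molecule) per 1000000 UMIs of a barcode or of a summed class, written CPM. A colonocyte had at least 3000 UMIs, under 20% of them from mitochondrially encoded genes, Zg16 (a goblet cell gene) under 20000 CPM, and at least 2500 CPM in Prdx6, Tgm3 and Ces2c together. Members, called Reg3-rich here, were selected on their Reg3b and Reg3g levels as colonocytes in which the sum of both reached 1500 CPM. The levels of all genes of this rule therefore describe the members and are not results about them.

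The mouse was a WT C57Bl6 animal without treatment, and 2 libraries, replicates 1 and 2, hold different cells of it. Dissociation used EDTA, collagenase and DNase, live cells were enriched on magnetic columns, and human K562 leukaemia cells, not analysed here, were spiked in. Cells received barcodes in inDrop droplets, and their RNA was amplified by CEL-Seq. There is 1 group and no comparison of conditions. In the edgeR test below the library is a block, so that a shift shared by all classes of a library is taken out. With 1 animal its p-values cover only how far class differences vary between 2 libraries of that animal, which may be technical. This spread is pooled over all classes of the fit, goblet and crypt cells included, with a common dispersion.

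Reg3b and Reg3g are C-type lectins that gut epithelial cells secrete. Reg3g binds peptidoglycan and kills Gram-positive bacteria, and both lectins help to keep bacteria away from the epithelial surface. Their genes respond to microbial signals through MyD88 and to interleukin 22 through STAT3. In the colon, colonocytes arise from dividing cells at the crypt base, move up the crypt and take on absorptive and barrier functions near the surface.

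Replicate 1 held 1738 barcodes with 8602490 UMIs and replicate 2 held 664 barcodes with 3951918 UMIs, and no barcode of one had the counts of a barcode of the other. The barcodes are numbered in the tables, so that shared barcode sequences could not be counted. The median total of members was 7284 UMIs (replicate 1) and 5557.5 UMIs (replicate 2), against 6327.5 and 8044 in the other colonocytes. Mitochondrially encoded UMIs had a median of 5.35% and 10.2% in members and 5.26% and 10.3% in other colonocytes.

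Reg3-rich cells were a minority of the colonocytes of both libraries. They were 49 of 361 colonocytes in replicate 1, or 13.6% (95% exact Clopper-Pearson interval 10.2% to 17.5%), and 14 of 127 in replicate 2, or 11.0% (6.16% to 17.8%). The intervals overlap and cover counting error only. A threshold of 3000 CPM gave 9.63% of all colonocytes where 1500 CPM gave 12.9%.

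The members differed widely in how much of the lectin transcripts they held. Reg3b and Reg3g together had a lowest, median and highest level of 1763, 5739 and 22384 CPM in the 49 members of replicate 1. In the 14 members of replicate 2 these were 1537, 4176 and 32301 CPM. The ranges of the 2 libraries overlapped, with the highest value in replicate 2, and a member held between 6 and 236 UMIs of both genes, with a median of 39.

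**Figure D1:**
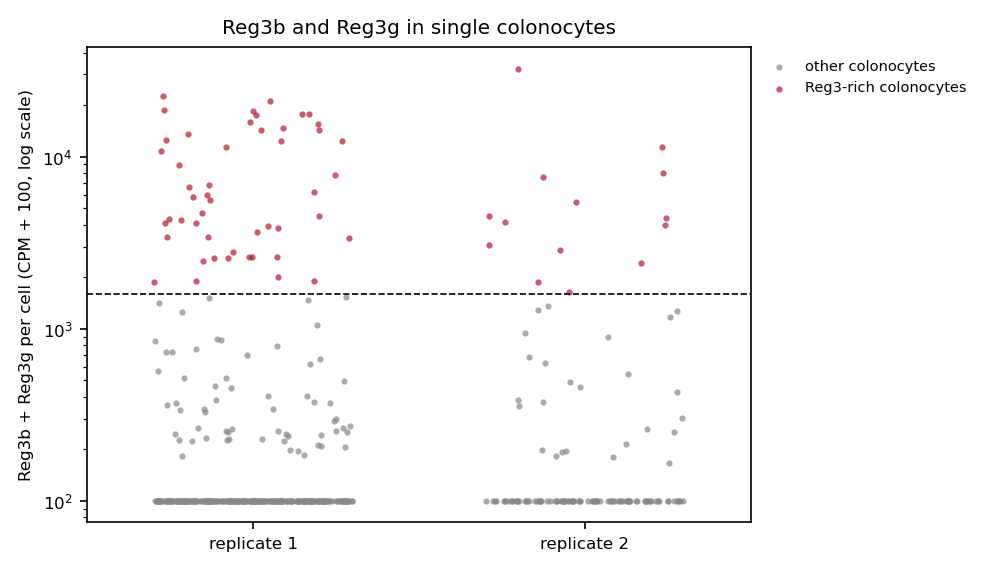
Each point is a colonocyte, placed by replicate (points are spread sideways at random) and by Reg3b plus Reg3g in CPM, with 100 added, on a log scale. Red points at or above the dashed line at 1500 CPM are the 63 members, and the grey row at the bottom is the 338 colonocytes without a UMI of either gene.

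The threshold cuts a thin tail and not a gap. The lowest members had 1537 and 1763 CPM, and the highest colonocytes below the threshold had 1426 and 1397 CPM. Of the 425 other colonocytes, 338 had no UMI of either gene and 87 had at least 1. Chosen on these genes, members held 94.1% of all Reg3b and Reg3g UMIs of colonocytes, and the 10 richest members held 42.7% of the UMIs of all members.

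Of the sum that chose the members, Reg3b was the larger part in 34 and Reg3g in 27. Both transcripts were found in 60 members, Reg3b alone in 2 and Reg3g alone in 1. In summed cells Reg3b stood at 4062 CPM in replicate 1 and 3600 in replicate 2 and Reg3g at 3950 and 2247, against 36.7 and 29.99 for Reg3b and 36.7 and 35.3 for Reg3g in other colonocytes. The genes are close paralogs, so that reads could have been counted for the wrong one. Of their relatives, Reg3a, Reg3d, Reg1 and Reg2 had no UMI in members.

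Low counts of the lectins were also found in barcodes with lymphocyte transcripts. These had at least 3 UMIs in the 10 T cell markers together, at any total, and were not colonocytes. They also held epithelial transcripts, with a Car1 UMI in 11 of 61 (replicate 1) and 6 of 23 (replicate 2). Barcodes with lymphocyte transcripts, at a median of 1745 and 4935 UMIs, held a Reg3b or Reg3g UMI in 8.20% (replicate 1) and 26.1% (replicate 2). The share in other colonocytes, all under 1500 CPM by the rule, was 19.9% and 22.1%. It was below this background in replicate 2 and above it, at a higher median depth, in replicate 1. At 1500 CPM or more stood 3 of 61 and 0 of 23 lymphocyte barcodes, 5 of 236 and 2 of 60 goblet cells, and 4 of 64 and 1 of 9 undifferentiated crypt cells. Those crypt cells had at least 1000 CPM in Ifitm3, Nox1 and Sox4 together, under 2500 CPM in the colonocyte genes and under 1000 CPM of Reg4.

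Members carried general markers of colonocytes, of which 3 are given first. Krt20, the keratin of differentiated colonocytes, stood at 5895 CPM in replicate 1 and 5400 in replicate 2, against 5512 and 3825 in other colonocytes. Slc26a3, the chloride-bicarbonate exchanger of the surface, was at 2352 and 1740 CPM against 2363 and 1748. Car4, a membrane carbonic anhydrase, was at 2466 and 2575 CPM against 2952 and 2423. None of these 3 genes passed the test. The Prdx6, Tgm3 and Ces2c sum of the colonocyte rule was lower in members, at 5314 and 4624 CPM against 9140 and 7097. As part of the rule this sum was not tested. Slc20a1, another colonocyte marker, was called lower, as given below.

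Fabp2, Car1 and Gsdmc had been proposed as marks of these cells together with the lectins, and their values are given as description. Fabp2, which binds fatty acids in enterocytes, stood at 536 and 646 CPM in members and 238 and 131 in other colonocytes. Car1, a cytosolic carbonic anhydrase of colonocytes, was at 1635 and 1372 CPM against 987 and 523. Gsdmc, which encodes a pore-forming gasdermin, went against the proposal, at 47.4 and 39.8 CPM in members and 97.7 and 156 in other colonocytes.

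For the test, UMIs were summed per library over 4 classes (Reg3-rich colonocytes, other colonocytes, undifferentiated crypt cells, goblet cells), and 13531 genes were fitted with edgeR's quasi-likelihood test with the library as a block. A call is a Benjamini-Hochberg adjusted p under 0.05, and errors are standard errors (n = 2 libraries throughout). The members of replicate 1 summed to 358466 UMIs, and the 14 members of replicate 2 to 100564.

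Against other colonocytes, few genes were called. Of 13531 genes, 80 were called, or 0.591%, with 17 higher in members (0.126% of genes) and 63 lower (0.466%). At an unadjusted p under 0.05 there were 861. In simulated counts the same fit called 47 of 100 well-counted genes with a log2 change of 1, and 93 of 100 with 2. A gene without a call may therefore still differ. The simulation gave 4 false calls among 13324 unchanged genes. Its classes shared 1 profile apart from the changed genes, and all genes had 1 dispersion. The false calls in the real counts were therefore not measured. The higher genes were led by 6 that were near 0 or low in other colonocytes. The largest lower calls included the ion pump gene Atp12a, bile acid binding Fabp6, the claudin gene Cldn8 and Hoxd13. Some gasdermin C and goblet cell transcripts were called lower at smaller differences. The median log2 difference of all genes was -0.23, and scaling by library totals alone moved it to -0.01 and the split to 35 higher and 48 lower. DESeq2's size factors in the same fit gave a median of -0.10 with 24 higher and 54 lower.

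The 6 genes over 4-fold higher were Asphd2, Hoxb7, Chml, St18, Aven and Ubl4a. Asphd2, an aspartate beta-hydroxylase domain gene, stood at 215 CPM in replicate 1 and 268 in replicate 2 in members, against 3.81 and 1.07 in other colonocytes, a log2 fold change of 6.002 ± 0.44 (edgeR adjusted p = 7.01e-38). It was found in 29 of 49 and 9 of 14 members and in 4 of 312 and 1 of 113 other colonocytes. With each cell thinned to 3000 UMIs it was found in 28.6% and 42.9% of members, against 0.641% and 0.885%, and unthinned lymphocyte barcodes had it in 3.28% and 13.04%. In each of the 6 genes both libraries of members lay above both of the others. Their choice as the largest calls, with the same direction in both libraries, favours such a separation.

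Hoxb7, a homeobox gene, was at 112 and 139 CPM in members and 1.43 and 5.36 in other colonocytes, a log2 fold change of 5.22 ± 0.55. Chml, which encodes an escort protein of Rab GTPases, was at 338 and 467 CPM against 12.9 and 13.9 (4.60 ± 0.33). St18, a zinc finger gene, was at 126 and 149 CPM against 4.77 and 8.57 (4.23 ± 0.46). Aven, known as an inhibitor of apoptosis, differed by 3.05 ± 0.32, and Ubl4a, a ubiquitin-like gene that serves the delivery of tail-anchored proteins, by 2.95 ± 0.28. These 6 were called in each of the 19 or 20 refits that tested them. Asphd2, Hoxb7, Chml and St18 reached the 50 UMIs asked of a named gene only through their UMIs in members. Hoxb7 also reached the 20 UMIs asked for the test only in this way. Their entry among the named genes is thus not independent of their level in members. Tacr3 and 4930509J09Rik, below the 50 UMIs asked of a named gene and picked out after their values were seen, were also called higher. Tacr3 stood at 44.6 and 59.7 CPM against 0.953 and 3.21, and 4930509J09Rik at 67.0 and 39.8 CPM against 0 and 1.07.

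**Figure D2:**
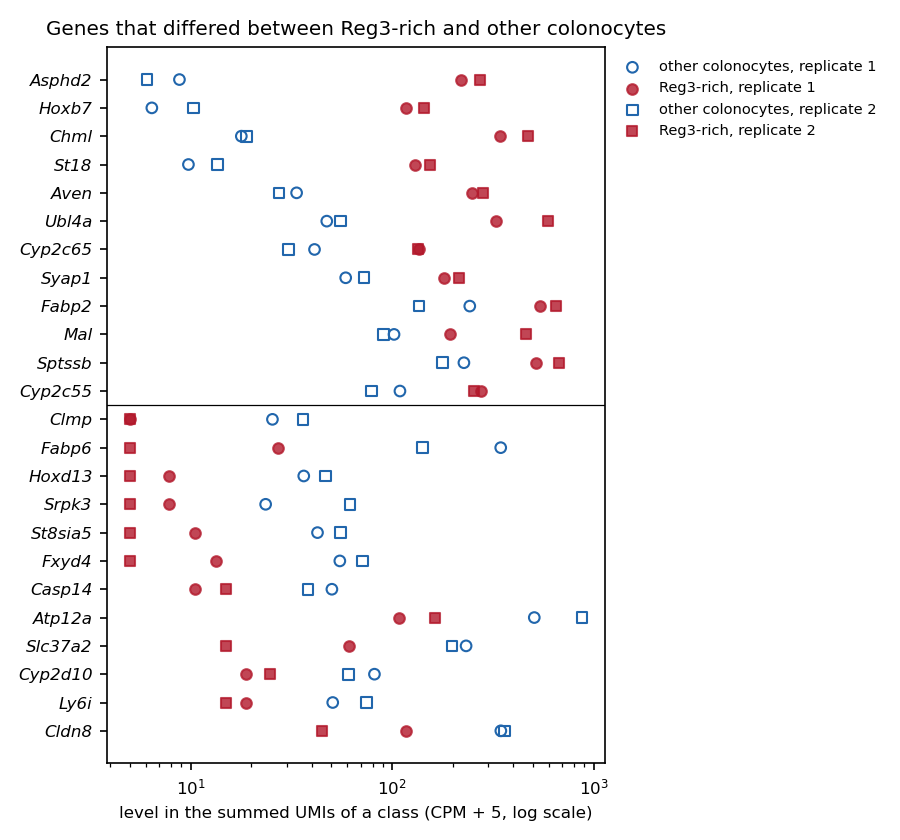
Levels of the 12 genes with the largest calls higher (above the line) and the 12 lower (below it) in members, in CPM of the summed class with 5 added, on a log scale. Red marks are Reg3-rich and open blue marks other colonocytes, with circles for replicate 1 and squares for replicate 2. In each gene the red marks lie on one side of the blue, which the choice of these genes favours.

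In lectin-rich barcodes the UMIs of these 6 genes stood in a like ratio to those of the lectins in several kinds of cell. The 6 genes were grouped after their values had been seen, and what follows is description. In barcodes with at least 1500 CPM of Reg3b and Reg3g, replicate 1 held 16.9 UMIs of the 6 genes per 100 lectin UMIs in colonocytes, 17.1 in the 4 crypt cells, 15.5 in the 5 goblet cells and 16.0 in the 56 barcodes of no class. In replicate 2 the ratio was 32.3 in colonocytes, 32.9 in 2 goblet cells, 24.8 in 21 barcodes of no class and 56.5 in 1 crypt cell. The ratio was thus between 15.5 and 17.1 in all 4 groups of replicate 1, and higher in replicate 2 in all of them. Below 1500 CPM the 6 genes had more UMIs for each lectin UMI in every group but the crypt cells of replicate 2: replicates 1 and 2 held 128 and 156 per 100 in colonocytes, 151 and 44.7 in crypt cells, 296 and 147 in goblet cells and 264 and 240 in barcodes of no class. The 338 colonocytes without a lectin UMI held 220 UMIs of the 6 genes, spread unevenly over them. Ubl4a had 109, Aven 64, Chml 28, St18 13, Hoxb7 4 and Asphd2 2.

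Among the 63 members the summed 6 genes had a Spearman correlation of 0.66 with the lectins. Single ones ranged from 0.41 for Hoxb7 to 0.53 for St18. Of other genes Car1 had 0.29, Fabp2 0.28, Sptssb 0.23, Mal 0.10 and Krt20 0.06, and total UMIs had -0.04. Points share 2 libraries and the lectin counts. Whether UMIs counted for these 6 genes come from reads of Reg3b or Reg3g transcripts was not tested.

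**Figure D3:**
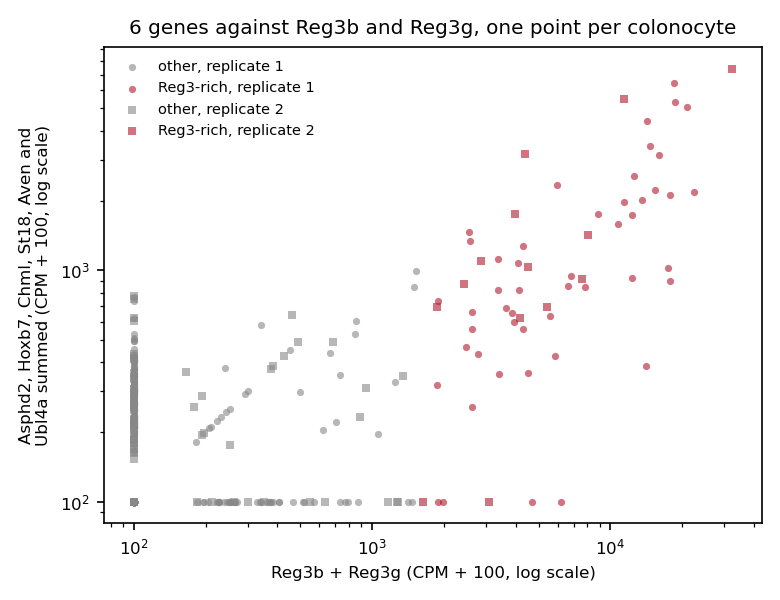
Each point is a colonocyte, with Reg3b plus Reg3g on the x axis and the sum of Asphd2, Hoxb7, Chml, St18, Aven and Ubl4a on the y axis, both in CPM with 100 added on log scales. Red points (members) climb from lower left to upper right in both replicates, with a Spearman correlation of 0.66 over 63 members.

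Genes of several functions were called higher at smaller differences. They were few of their lists: 1 of 19 lipid genes (Fabp2), 1 of 18 retinoid genes (Aldh1a1) and 2 of 37 detoxification genes (Cyp2c65 and Cyp2c55), of which DESeq2 called 1. Sptssb, a subunit of serine palmitoyltransferase, which starts sphingolipid synthesis, was at 513 and 666 CPM in members and 222 and 172 in other colonocytes, a log2 fold change of 1.29 ± 0.24 (edgeR adjusted p = 4.77e-05). Mal, a proteolipid of apical membrane sorting, was at 190 and 457 CPM against 97.2 and 85.7 (1.36 ± 0.28). Fabp2 differed by 1.39 ± 0.24. A Fabp2 UMI was found in 41 of 49 and 14 of 14 members and in 144 of 312 and 41 of 113 other colonocytes, and at 3000 UMIs a cell in 67.3% and 92.9% against 37.2% and 20.4%. Lymphocyte barcodes had it in 13.1% and 17.4%.

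Cyp2c65 and Cyp2c55, cytochromes P450 with close paralogs between which reads could be divided, differed by 1.80 ± 0.36 and 1.29 ± 0.28. Syap1, a synapse-associated protein gene, differed by 1.44 ± 0.31. Aldh1a1, which makes retinoic acid from retinal, was at 273 and 278 CPM in members against 103 and 102 (1.19 ± 0.27). Emp1, an epithelial membrane protein gene, was at 577 and 1183 CPM against 448 and 224 (1.05 ± 0.23). All these differences went the same way in both libraries. Apart from Aldh1a1 and Emp1, the genes were chosen with that asked of them. The calls of Cyp2c65, Syap1, Fabp2, Mal, Sptssb and Cyp2c55 each ended under 2 to 4 of 20 refits.

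The transporter genes Atp12a and Slc37a2 were lower in members. Atp12a, the non-gastric proton-potassium pump, was at 103 and 159 CPM in members and 502 and 871 in other colonocytes, a log2 fold change of -2.57 ± 0.28 (edgeR adjusted p = 9.49e-17). Slc37a2, a sugar phosphate exchanger, was at 55.8 and 9.94 CPM against 228 and 193 (-2.53 ± 0.37). An Atp12a UMI was found in 30.6% and 35.7% of members and 71.2% and 78.8% of other colonocytes, and at 3000 UMIs a cell in 22.4% and 14.3% against 58.7% and 67.3%, with 3.28% and 21.7% in unthinned lymphocyte barcodes. Of the members, 6 of 49 and 2 of 14 reached 500 CPM in both genes together, against 155 of 312 and 72 of 113 others.

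Fewer genes were called without the cells rich in these transporters. With other colonocytes at 500 CPM or more of Atp12a and Slc37a2 left out, 25 of 12362 genes were called, 10 higher and 15 lower, of which 24 were among the 80. Atp12a then differed by 0.059 and Slc37a2 by -0.10, as this choice of cells sets. Fabp6, Srpk3, Cldn8, Gsdmc, Gsdmc2, Gsdmc4, Muc2, Agr2, Spink4 and Ccl6 were among those still lower. The 6 leading genes, Cyp2c55 and Syap1 were still higher, and Fabp2 (log2 difference 1.05), Mal (1.14) and Sptssb (1.01) were not called. This refit has fewer cells and a common dispersion of 0.0294 against 0.0196, and the parts of makeup and of precision in the lost calls were not tested.

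Fabp6, the bile acid binding protein of ileal enterocytes, had 8 UMIs in members and 842 in other colonocytes. It was at 22.3 and 0 CPM against 341 and 136, a log2 fold change of -4.32 ± 0.45 (edgeR adjusted p = 2.26e-18). Cldn8, a barrier-forming claudin of the distal colon, was at 112 and 39.8 CPM against 341 and 357 (-2.19 ± 0.31). Both genes were called lower in each of 20 refits. Members of both libraries lay below both libraries of the others, which the choice of the largest calls favours.

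Several lower genes were too rare in members for a fitted value. Clmp, an adhesion molecule gene, had no UMI in members and 72 in other colonocytes, at least 2.88-fold lower by the 95% counting interval. Hoxd13, a homeobox gene of the hindgut, had 1 UMI against 105, a ratio of 15.9 (95% counting interval 2.79 to 634). Srpk3, a splicing factor kinase gene, had 1 against 92 (13.9, 2.44 to 556), and St8sia5, a sialyltransferase gene, 2 against 126 (9.54, 2.59 to 79.6). Fxyd4, which encodes a regulator of the sodium pump, had 3 against 167 (8.43, 2.83 to 41.3), and Casp14, a caspase gene known from keratinocytes, 3 against 126 (6.36, 2.13 to 31.2). These calls ended under 4 to 11 of the refits of each gene. Cyp2d10 (-2.37 ± 0.54) lost its call under 6 of 20 and Ly6i (-2.20 ± 0.58) under 16 of 20, and both have close paralogs.

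The Hox genes, which mark position along the gut, did not move together. Of 10 tested, Hoxb7 was called higher and Hoxd13 and Hoxb13 lower. Hoxb13 was at 296 and 259 CPM in members and 523 and 419 in other colonocytes (-1.004 ± 0.25). The other 7, such as Hoxa10 at 36.3 and 49.7 CPM against 26.2 and 32.1, were not called. With library totals alone 1 of the 2 lower calls was lost, and DESeq2 made neither of them.

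No other antimicrobial gene tested was called higher in members, where 0.126% of all genes were. Of 22 tested genes of the defence list only Pglyrp1, a peptidoglycan recognition protein, was called, at a lower level of 223 and 179 CPM against 382 and 495 (-1.26 ± 0.26). Lypd8, which binds flagellated bacteria, was at 19927 and 18307 CPM against 26297 and 18454, and the serum amyloid gene Saa1 at 4544 and 4783 against 7483 and 5588, both without a call. The list's median log2 difference was -0.43, against -0.23 for all genes. In the list 6 genes had an unadjusted p under 0.05, and DESeq2 called none.

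Genes of the pathways known to induce the lectins showed no call, which is near the share of 0.591% called over all 13531 genes. None of 18 genes of the interleukin 22 and STAT3 list passed edgeR's test, none had an unadjusted p under 0.05 and DESeq2 called none, with a median of -0.09. Stat3 itself was at 112 and 169 CPM against 125 and 105, Il10rb at 97.6 and 109 against 107 and 68.6, and Il22ra1, a receptor chain, had 1 UMI in members, too few to test. None of 29 genes of the Toll-like receptor and NF-kB list was called by edgeR or DESeq2, and 7 had an unadjusted p under 0.05. Over all 13531 genes 861 did. The list leaned lower in members, with 22 of 29 log2 differences negative and a median of -0.42, against -0.23 for all genes. Myd88 stood at 44.6 and 39.8 CPM against 58.6 and 57.8. The standard error of its log2 difference was 0.42.

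Close paralogs of the gasdermin C family were lower. Of 19 genes in the gasdermin and inflammasome list 3 were called, all lower: Gsdmc (-1.51 ± 0.38), Gsdmc2 (-1.84 ± 0.45) and Gsdmc4 (-1.35 ± 0.25). Gsdmc4 was at 290 and 209 CPM in members against 608 and 512. Gsdmd, the gasdermin cleaved by inflammatory caspases, was at 137 and 229 CPM against 184 and 152, and Il18 at 69.7 and 39.8 against 94.8 and 90.0, without a call. DESeq2 called 1 of the list.

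Transport genes were lower in part, and surface genes in both directions. In the ion, water and acid-base transport list 6 of 38 genes were called lower and none higher. Beside Fxyd4, Atp12a and Slc37a2 these were the phosphate transporter gene Slc20a1 (-1.51 ± 0.41), the peptide transporter gene Slc15a1 (-1.29 ± 0.31) and the potassium channel gene Kcnn4 (-1.16 ± 0.32). The water channel gene Aqp8, at 873 and 1472 CPM against 1313 and 1071, was not called, and its libraries overlapped. With size factors or totals as scaling, 2 genes of the list were called higher and 4 lower, and DESeq2 called none higher and 2 lower. Of 24 surface colonocyte genes Emp1 was called higher and Slc20a1, Clca4b (-1.21 ± 0.24) and Ly6a (-0.84 ± 0.22) lower, and DESeq2 called none.

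Part of the goblet cell transcripts was lower in members. Of 10 goblet markers 5 were called lower and none higher: the mucin gene Muc2 (-1.48 ± 0.26), Agr2 (-1.45 ± 0.29), Fcgbp (-1.40 ± 0.36), Spink4 (-1.39 ± 0.30) and Clca1 (-1.15 ± 0.29). The 10 markers summed to 979 and 1860 CPM in members, 2131 and 3427 in other colonocytes and 83776 and 74016 in goblet cells, and none was at 0 in members. Their median was -1.14 against -0.23 for all genes, and DESeq2 called none. Of 8 deep crypt secretory markers Ccl6 was called lower (-1.60 ± 0.30). The part that free RNA of goblet cells or mixed droplets has in these differences was not tested. With colonocytes low in goblet transcripts alone, 73 genes were called, 68 of them among the 80.

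Markers of other cell types were sparse in both colonocyte classes. The 10 T cell markers summed to 44.6 and 129 CPM in members and 52.9 and 140 in other colonocytes, with 4 of 10 at 0 in members. The 6 myeloid markers summed to 22.3 and 19.9 CPM against 27.2 and 52.5, with 3 at 0. The 7 tuft markers, with 4 at 0, summed to 64.2 and 109 CPM against 59.1 and 115, and the 5 Paneth markers, with 4 at 0, to 2.79 and 0 against 3.81 and 3.21. None of the tested genes of these lists was called by edgeR or DESeq2, and 1 T cell and 1 tuft marker had an unadjusted p under 0.05. EdgeR called 0.591% of all genes.

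Most metabolic and structural lists held no call between colonocyte classes. Over all 13531 genes only 0.591% were called, so that no call in lists of this size is near that share. None of 26 brush border genes was called (3 at an unadjusted p under 0.05), none of 23 fatty acid oxidation genes (1), none of 44 nuclear oxidative phosphorylation genes (2) and none of 30 cytosolic ribosomal protein genes (2). The same held for 29 interferon-stimulated genes (4), 9 MHC class II genes (2), 9 MHC class I genes (2), 30 gut transcription factors (3), 21 proliferation genes (2) and 21 dissociation and immediate early genes (2). DESeq2 called none in these 10 lists. With totals as scaling edgeR called 1 transcription factor higher. Klf4, a factor of differentiated colonocytes, was at 1314 and 1153 CPM against 1066 and 786, Cdx2 at 438 and 328 against 259 and 169, and the immediate early gene Fos at 569 and 418 against 404 and 417.

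Part of the pattern was present in colonocytes just below the threshold. In the 24 colonocytes with 500 to 1500 CPM of the lectins, Fabp2 stood at 434 CPM, against 181 in the 338 without a lectin UMI and 606 in the 47 with 3000 CPM or more. Atp12a and Slc37a2 together fell from 902 CPM without a lectin UMI to 651, 298, 274 and 126 CPM over the 4 bins of rising lectin level. The Gsdmc family was at 880, 731, 194, 457 and 329 CPM over the 5 bins, so that the lowest value lies below the threshold. Replicate 2 has only 8 and 5 cells in the 2 middle bins from 500 to 3000 CPM, and replicate 1 has 16 and 11. Goblet markers were highest in the bin from 500 to 1500 CPM, at 6332 CPM (3457 in replicate 1 and 14194 in replicate 2), against 2205 without a lectin UMI and 1252 and 1147 in the 2 bins of members. Their part in the other values of that bin was not tested.

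The 6 leading genes were highest in the members with 3000 CPM or more of the lectins. Over the 5 bins they stood at 90.6, 55.4, 248, 457 and 1624 CPM in replicate 1 and at 92.5, 140, 121, 571 and 2355 CPM in replicate 2. Car1 was at 961, 886, 1644, 1972 and 1533 CPM in replicate 1, and at 481, 771, 314, 876 and 1548 CPM in replicate 2. Krt20 lay between 4906 and 6251 CPM in replicate 1 and between 2297 and 5788 in replicate 2, with its lowest level in the 8 cells from 500 to 1500 CPM. These levels are over binned cells of 1 animal, and no test was made.

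**Figure D4:**
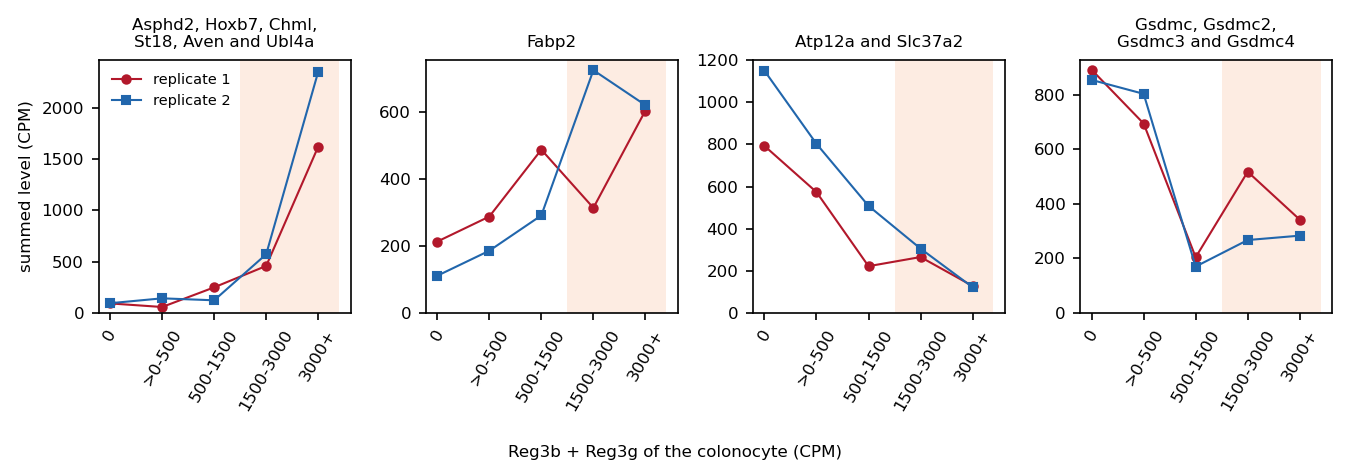
Summed levels in CPM of 4 gene groups (y axes, starting at 0) in colonocytes binned by their Reg3b plus Reg3g level (x axes, CPM), with a line for each replicate and members on the shaded ground. The 6 leading genes are highest at 3000 CPM and more (1624 and 2355 CPM), Fabp2 is higher and Atp12a with Slc37a2 lower from 500 CPM on in both replicates, and 2 of the replicate 2 bins hold 8 and 5 cells.

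Against undifferentiated crypt cells the members differed in a large part of all genes. Of 13531 genes 2819 were called (20.8%), 1406 higher in members (10.4%) and 1413 lower (10.4%). Members carried the transcripts of absorption, brush border and defence, and crypt cells those of division, ribosomes and Wnt targets. Both classes were set by bounds on Prdx6, Tgm3 and Ces2c, so that the contrast is not one of Reg3-rich cells alone. Against other colonocytes, where 0.591% of all genes were called, none of 26 brush border genes was called and 1 of 22 defence genes was lower. Of 24 surface genes 1 was higher and 3 were lower. Library totals as scaling moved the median of all genes from -0.18 to -0.44 and the split to 1196 higher and 2032 lower. The crypt class rests on 64 cells in replicate 1 and 9 in replicate 2.

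Crypt cells lacked several surface transcripts altogether. Pmp22, a tetraspan membrane protein gene, had 315 UMIs in members and none in crypt cells, at least 94.4-fold higher by the counting interval, as for the bounds that follow. Ly6d, a GPI-anchored surface protein gene, had 158 against 0 (at least 47.1-fold), and Bbox1, the last enzyme of carnitine synthesis, 50 against 0 (at least 14.5-fold). Prss30, a serine protease gene, had 184 UMIs against 1, a ratio of 205 (36.3 to 8127). Clca4b, of the chloride channel regulator family, had 189 against 1 (210, 37.3 to 8346), and the carboxylesterase gene Ces2e 297 against 2 (165, 45.3 to 1370). Clca4b and Ces2e have close paralogs.

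In the other direction members lacked transcripts of replication and division. Mcm5, a subunit of the replicative helicase, had no UMI in members and 87 in crypt cells, at least 20.8-fold lower in members by the counting interval. Cdk6, a kinase of cell cycle entry, had 0 against 70 (at least 16.6-fold), and Cks1b, a subunit of cyclin-dependent kinases, 0 against 55 (at least 12.96-fold). Trp53, the p53 gene, had 1 UMI against 112, a ratio of 101 (17.7 to 4012), and Uck2, a uridine-cytidine kinase gene, 1 against 66 (59.3, 10.3 to 2379). Hmgn1, a nucleosome binding protein gene, was at 11.2 and 0 CPM against 483 and 660, a log2 fold change of -5.60 ± 0.50. All 12 genes named here were called in each of 20 refits.

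**Figure D5:**
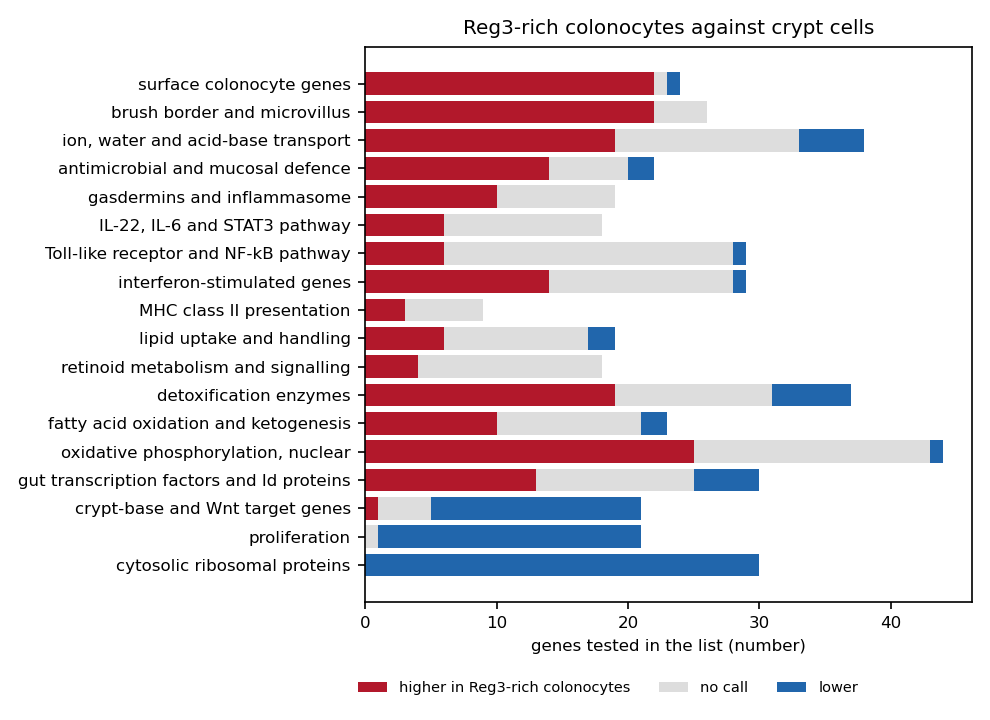
Numbers of genes tested in each of 18 lists (bars, x axis) that were called higher in members than in crypt cells (red), lower (blue) or not called (grey). Surface and brush border genes are nearly all red, and proliferation and ribosomal protein genes nearly all blue.

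Absorptive genes were higher as groups. Of 24 surface colonocyte genes 22 were called higher and 1 lower, with a median log2 difference of 4.01 against -0.18 for all genes. Krt20 was at 74.4 and 49.8 CPM in crypt cells (log2 difference 6.69 ± 0.34). Of 26 brush border genes 22 were called higher and none lower, among them Vil1, the actin bundler of microvilli (2.79 ± 0.31), and the meprin gene Mep1a (5.53 ± 0.52). Of 38 transport genes 19 were called higher and 5 lower. Car1 (7.02 ± 0.41), Car4 (6.46 ± 0.36) and Aqp8 (6.24 ± 0.40) were higher, and the chloride secretion genes Slc12a2 (-4.17 ± 0.32) and Kcne3 (-3.99 ± 0.45) lower.

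Of 22 defence genes 14 were called higher in members and 2 lower, and DESeq2 called 10 higher and none lower. Lypd8 was at 941 and 436 CPM in crypt cells (5.07 ± 0.28) and Saa1 at 99.9 and 112 CPM (5.83 ± 0.32). Sprr2a2, whose family has near-identical members, was at 14199 and 23915 CPM in members and 307 and 112 in crypt cells (6.41 ± 0.31). Retnlb, a goblet cell product, was lower (-1.89 ± 0.47), but replicate 2 alone had it higher in members.

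Of 19 gasdermin and inflammasome genes 10 were called higher and none lower. Gsdmc4 (3.64 ± 0.43) and Naip1, a sensor of bacterial proteins (4.01 ± 0.48), were among them. Of 29 interferon-stimulated genes 14 were called higher and 1, Irf8, lower (-1.09 ± 0.33). Ifit1bl1 was at 1434 and 865 CPM in members against 32.5 and 0 (5.82 ± 0.38), and Isg15 at 190 and 149 against 39.5 and 0 (2.76 ± 0.43). The calls of Ifit1, Ifit2 and Rsad2 rest on replicate 1. In replicate 2 Ifit1 was at 9.94 CPM in members and 12.5 in crypt cells, and Ifit2 and Rsad2 had no UMI in either class.

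The pathway lists were called in part. Of 18 interleukin 22 and STAT3 genes 6 were called higher and none lower, with Stat3 at 79.0 and 74.8 CPM in crypt cells (1.01 ± 0.39), Il17rc (2.45 ± 0.46) and Fut2, a fucosyltransferase gene (1.69 ± 0.32). DESeq2 called 3 of them. Socs1 and Socs3, feedback inhibitors of the pathway, were called higher, but in replicate 2 Socs1 was at 29.8 CPM in members and 62.3 in crypt cells and Socs3 had no UMI in either class. Of 29 Toll-like receptor and NF-kB genes 6 were called higher, such as Tlr1 (2.65 ± 0.54) and Tnfaip3 (2.99 ± 0.58), and Irak1 lower (-2.36 ± 0.48). With totals as scaling, 5 were higher and 3 lower. Of 9 MHC class II genes 3 were called higher, among them H2-Aa (1.27 ± 0.24).

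Metabolic lists held more calls higher than lower, and in part of them most genes were not called. Of 44 nuclear oxidative phosphorylation genes 25 were called higher and 1 lower, with Cox5a at 1939 and 1850 CPM against 878 and 710 (1.55 ± 0.24). Of 23 fatty acid oxidation genes 10 were higher and 2 lower, with Slc25a20, the carnitine carrier, among the higher (4.72 ± 0.47). Of 37 detoxification genes 19 were higher and 6 lower, with the alcohol dehydrogenase gene Adh1 (-3.02 ± 0.28) and Aldh1b1 (-2.46 ± 0.31) among the lower. Cyp2c55 had only 2 UMIs in crypt cells and 270.6 and 248.6 CPM in members. Of 19 lipid genes 6 were higher and 2 lower, led by Fabp2 (3.52 ± 0.34). DESeq2 called none lower in the fatty acid oxidation and lipid lists. Of 18 retinoid genes 4 were higher, among them Aldh1a1 (3.98 ± 0.44).

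Crypt programmes were lower. Of 21 crypt-base and Wnt target genes 16 were called lower and 1, Prom1, higher (1.12 ± 0.32). Cd44 was at 8.37 and 9.94 CPM in members against 344 and 274 (-4.90 ± 0.55), and Clca3b at 449 and 199 against 1908 and 1370 (-1.94 ± 0.25). Of 21 proliferation genes 20 were called lower and none higher, with Top2a at 25.1 and 19.9 CPM against 388 and 150 (-3.42 ± 0.45) and Stmn1 at 13.9 and 19.9 against 614 and 473 (-4.89 ± 0.45). All 30 cytosolic ribosomal protein genes were called lower, with a median of -2.03, and DESeq2 called 29. Rplp0 was at 912 and 915 CPM in members and 3458 and 3875 in crypt cells (-1.67 ± 0.24).

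Among gut transcription factors 13 of 30 were called higher and 5 lower. Klf4 (4.18 ± 0.31) and the bile acid receptor gene Nr1h4 (3.81 ± 0.56) were higher, and the Notch target gene Hes1 (-1.88 ± 0.47) and Cdx1 (-1.57 ± 0.38) lower. Hoxb7 differed from crypt cells as it did from other colonocytes, at 4.65 and 12.5 CPM in crypt cells (4.46 ± 0.70). Whether its UMIs in members come from lectin transcripts was not tested. Cells of the crypt class had median totals of 6383.5 and 8222 UMIs, against 7284 and 5557.5 in members. With each cell thinned to 3000 UMIs 1402 genes were called, of which 1364 were among the 2819.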

How the data were processed

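Counts per gene and barcode were deposited by the authors as whole-number UMI counts without normalization. Per the submitters' processing notes, GRCh38 and GRCm38 were the genome builds. The aligner, annotation, counting strand and barcode filter were not given in the sources used here, so that overlapping, antisense and near-identical genes are uncertain. No mouse genome or sequence table was used here.

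Barcodes were classed by the CPM thresholds given above. Genes of these rules (Reg3b, Reg3g, Zg16, Prdx6, Tgm3, Ces2c, Ifitm3, Nox1, Sox4, Reg4 and mitochondrially encoded genes) were left out of library sizes and tests. UMIs were summed per library and class (8 sums), and the 13531 genes with at least 20 UMIs entered edgeR 4.0.16 (quasi-likelihood functions glmQLFit and glmQLFTest, TMM, library as block, two-sided) in R 4.3.3, with a common dispersion of 0.0196 and 3 residual degrees of freedom. Libraries pair the sums by construction, since all classes come from the same libraries. CPM values are over all UMIs of a class. Sums were made with scikit-learn 1.9.0, pandas 2.3.3, scipy 1.17.1 and numpy 2.4.6 under Python 3.11.15, and the fit was tested on simulated data. No doublets were removed. As an alternative, the 5% of barcodes with the highest score from simulated doublets were left out, 5 of them members. Alternatives were DESeq2 1.42.0, other scalings, filters and thresholds, thinning to 3000 UMIs and each library alone.

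Genes were named by rule: the 12 largest calls each way against other colonocytes and the 6 each way against crypt cells, with at least 50 UMIs and the same direction in both libraries, without Gm and Rik models, and up to 4 called members of each list with its first gene. Other list genes in the text were chosen after their values were seen. The members and lists were chosen with earlier results of these data known. Lists were counted over all of their tested genes, and list genes absent from the tables were not analysed here.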

Additional observations from a re-analysis of the deposited data

Results flagged for a closer look

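Lectin-rich barcodes were not confined to colonocytes. Outside the colonocyte, crypt and goblet classes, 77 barcodes with at least 3000 UMIs and under 20% mitochondrially encoded UMIs had at least 1500 CPM of Reg3b and Reg3g, more than the 63 colonocytes that did. They were 56 of 457 such barcodes in replicate 1 (12.3%, 95% exact Clopper-Pearson interval 9.39% to 15.6%) and 21 of 193 in replicate 2 (10.9%, 6.86% to 16.2%), against 3 of 61 and 0 of 23 lymphocyte barcodes. This signal drew attention because it lies in barcodes that no comparison used.

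These 77 barcodes held Krt20 at 961 and 818 CPM, Slc26a3 at 411 and 432, Car1 at 399 and 233 and Fabp2 at 343 and 299. The 573 other barcodes of no class held Krt20 at 287 and 508 CPM, Slc26a3 at 115 and 190, Car1 at 79.1 and 99.4 and Fabp2 at 89.3 and 90.2. Muc2 stood at 4452 and 2885 CPM in the 77 and 14470 and 9998 in the others, and Reg4 at 163 and 299 against 4089 and 3056. The Prdx6, Tgm3 and Ces2c sum, which the colonocyte rule bounds, was 764 and 818 CPM in the 77.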

How the results depend on the processing

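Counts of calls changed with depth, classes and test. Against other colonocytes the 80 calls became 29 with cells thinned to 3000 UMIs after classing (all 29 among the 80), 42 with thinning before it, 49 with mitochondrial shares under 10%, 25 without other colonocytes rich in Atp12a and Slc37a2, and 27 with DESeq2's Wald test (all 27 among the 80). The crypt class, which shares the fit, also counted: 27 genes were called with crypt cells at 2000 CPM or more of Ifitm3, Nox1 and Sox4 and 45 with crypt cells low in cycling genes, all among the 80, and 107 with crypt cells at 500 CPM or more, alternatives added to this comparison after seeing the data. The paired design mattered: with no replicate block 22 genes were called, all among the 80. Against crypt cells the 2819 calls became 1402 and 1460 with thinning after and before classing, 1532 with crypt cells at 2000 CPM or more of Ifitm3, Nox1 and Sox4, and 1719 with crypt cells low in cycling genes. Leaving out the 5 members with the most lectin UMIs, an alternative chosen after seeing the data, gave 68 and 2643. The share of Reg3-rich cells was 9.63% at a threshold of 3000 CPM and 11.0% to 13.6% in single libraries. A library alone leaves no residual degrees of freedom and gave values only.

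Directions reversed for few genes. Without other colonocytes rich in Atp12a and Slc37a2, Atp12a had a log2 difference of 0.059 and Clca4b of 0.29. Against crypt cells, of which replicate 2 holds 9, replicates 1 and 2 alone gave -2.20 and 0.33 for Agr2, -1.998 and 1.55 for Muc2, -2.35 and 0.46 for Retnlb, and 2.44 and -0.92 for Socs1. The cause of these was not tested. For Ifit1 replicate 1 gave 6.63 and replicate 2 gave -0.27, from 1 UMI in each class with 0.5 added, which measures no direction. Ifit2, Rsad2 and Socs3 had no UMI in either class of replicate 2, which gave no value. Genes with few UMIs in the 14 members of replicate 2 are limited by depth.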
